A study of Rattus norvegicus with 17 samples.

Results

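Brg1, the ATPase encoded by Smarca4 that drives the BAF chromatin remodelling complex, was followed from oligodendrocyte precursor cells (OPC) to immature oligodendrocytes (iOL). The data were 2 lists of Brg1 peaks from ChIP-seq, the sequencing of DNA pulled down with an antibody, with 452 peaks in OPC and 5465 in iOL. Together they make 5917 of the 189320 peaks in the 17 lists of the study, which also cover mature oligodendrocytes (mOL), the factor Olig2, RNA polymerase II and 3 histone marks. All peaks of both lists were members, and an iOL peak sharing at least 1 bp with an OPC peak was called kept, any other iOL-only. OPC, iOL and mOL were all wild-type Sprague-Dawley rat cells, taken into primary culture from the cortex at postnatal day 2. OPC carried the label of mitogen treatment, and the growth medium held PDGF-AA at 10 ng/ml and bFGF at 20 ng/ml. The iOL and mOL samples were both labelled as treated with T3, the thyroid hormone triiodothyronine, and the differentiation medium held T3 at 15 nM and ciliary neurotrophic factor at 10 ng/ml. The antibody to Brg1 had the same label at each stage. Because the culture protocol uses the name iOL for every sample, stages were taken from titles. No source used here gives the number of pups or cultures behind a library, or the hours in differentiation medium.

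BAF complexes use the energy of ATP to slide or evict nucleosomes, and so open DNA to sequence-specific factors. In the oligodendrocyte lineage, Olig2 is a basic helix-loop-helix factor present from the precursor on, and withdrawal of mitogens with addition of thyroid hormone starts the program that ends in myelin. Acetylation of histone H3 at lysine 27 (H3K27Ac) marks enhancers and promoters in use. H3K4me3 is a promoter mark and H3K9me3 a mark of silent chromatin.

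Each stage had 1 Brg1 library, so no test between stages was possible and no p-value is given. Shares carry exact Clopper-Pearson 95% intervals for the counting error of peaks, taken as independent. The lists give only positions, in rat build rn4, so depth is unknown. More bound sites and a deeper or more loosely called library cannot be told apart. Peaks were not assigned to genes and no sequence is printed, because no genome or annotation of build rn4 was used here. The cell type labels were for the same reason not checked against marker genes.

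The order of the rows in the iOL list bears on the kept peaks and is given first. Lists of the study differed in row order. Those of RNA polymerase II, H3K27Ac and H3K9me3 ran in position order, and those of Olig2, H3K4me3 and mOL Brg1 mostly did not. In the mOL Brg1 list, at least 4253 of the 4378 rows would have to be removed to leave it in order. The OPC Brg1 list ran in position order throughout. The iOL list did so except for 18 rows, the fewest that have to be removed to leave it in order, of which 9 stood together in a single block. All 18 of these peaks met an OPC Brg1 peak (100%, 81.5 to 100), against 438 of the 5447 peaks in order (8.04%, 7.33 to 8.80). Of the 18, 7 had exactly the start and end of an OPC peak, such as chr1:107801171-107802229 and chr12:45593415-45594592. None of the 438 kept peaks in order did (up to 0.685% for 3 counts). Of the 18, 3 met H3K27Ac in iOL (16.7%, 3.58 to 41.4) and 5 met Brg1 in mOL (27.8%, 9.69 to 53.5), against 63.9% (59.2 to 68.4) and 68.5% (63.9 to 72.8) of the kept peaks in order. No source used here says how these rows came into the list. Main shares of kept peaks and the median width ratio are given with and without them. Runs, marks by width group or by size of width change, and counts of joint states of marks include them.

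Nearly every OPC Brg1 site was called again in iOL, and most iOL sites were called there only. An iOL peak was met by 450 of the 452 OPC peaks (99.6%, 98.4 to 99.9), and by 432 (95.6%, 93.2 to 97.3) without the 18 rows. In the other direction 456 of 5465 iOL peaks were kept (8.34%, 7.62 to 9.11) and 5009 were iOL-only. The share of OPC sites called again was 71.6% (71.0 to 72.2) for Olig2, 76.3% (75.7 to 76.9) for H3K27Ac, 82.8% (82.1 to 83.5) for H3K4me3, 65.1% (59.7 to 70.2) for RNA polymerase II and 6.95% (6.09 to 7.90) for H3K9me3. The share of iOL sites already called in OPC, 8.34% for Brg1, was 15.0% (13.2 to 17.0) for RNA polymerase II, 27.7% (24.7 to 30.9) for H3K9me3, 61.4% for Olig2, 66.0% for H3K27Ac and 91.7% (91.1 to 92.2) for H3K4me3. These lists differ from the Brg1 lists in length, and the part of length was not tested. In mOL, 301 of the 452 OPC Brg1 sites met a Brg1 peak (66.6%, 62.0 to 70.9).

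The match was almost always 1 peak to 1 peak. Of the OPC peaks, 443 met a single iOL peak and 7 met 2, and none met 3 or more. The widest OPC peak, chr8:43989855-43993327 at 3473 bp, was among the 7. A single iOL peak, chr18:40846943-40849654, joined 2 OPC peaks. The other 455 kept iOL peaks met 1 OPC peak each. All 8 of these places carried Olig2 in OPC and iOL and H3K27Ac in OPC and mOL, and H3K27Ac in iOL was called at all but the OPC peak chr18:82715757-82717527.

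The OPC peaks without an iOL peak were the remaining 2. The first, chr17:88210164-88211135 (972 bp), lay 73150 bp from the nearest iOL Brg1 peak. It met Olig2 in OPC and nothing in any other list. The second, chr3:116065065-116065958 (894 bp), lay 172021 bp from the nearest iOL peak. It met no Olig2 peak at any stage, but Brg1 and H3K27Ac in mOL. Both were narrower than the OPC median of 1283 bp.

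Kept peaks were found at all widths of the iOL list, more often among wide peaks. The share that was kept was 1.46% (0.633 to 2.86) in the narrowest of 10 equal groups of iOL peaks, at 298 to 659 bp. It was 18.6% (15.5 to 22.2) in the widest group, at 1631 to 5447 bp. The groups between ran from 3.30% to 12.6%. Of the 8 kept peaks in the narrowest group, 6 were in position order, and of the 102 in the widest, 100. Kept iOL peaks had a median width of 1192 bp (quartiles 977 and 1586; 1205.5 bp without the 18 rows) and iOL-only peaks of 967 bp (769 and 1254). The OPC list was still not the top of the iOL list by width. Of the 452 widest iOL peaks, 88 met an OPC peak (19.5%, 15.9 to 23.4), so 364 of the widest iOL sites had no call in OPC.

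**Figure D1:**
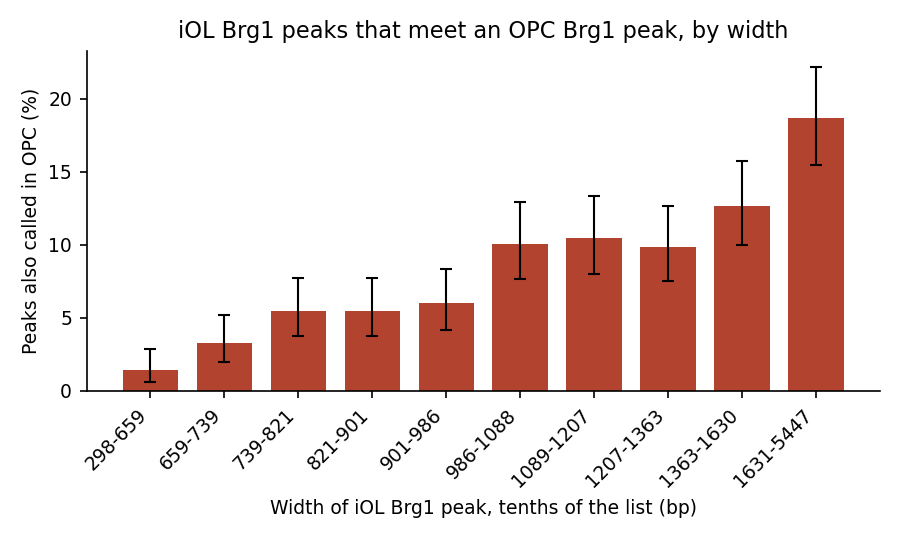
Share of iOL Brg1 peaks that met an OPC Brg1 peak (y axis, %) in 10 equal groups of the iOL list by peak width (x axis, bp); bars are shares and lines exact 95% intervals. The share runs from 1.46% in the narrowest group to 18.6% in the widest.

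Widths changed little at kept sites. At the 450 OPC peaks met in iOL, the median width was 1284 bp in OPC and 1204 bp in iOL, with the iOL peak of largest overlap taken. The ratio of iOL to OPC width had a median of 0.961 (95% interval of the median over peaks 0.937 to 0.991) and quartiles of 0.789 and 1.16. The iOL peak was wider at 194 sites, narrower at 249 and equal at 7, the last being the identical rows. It was at least 1.5 times wider at 38 sites (8.44%) and at least 1.5 times narrower at 53 (11.8%), so changes in both directions occurred. Without the 18 rows the median ratio was 0.959, with 35 sites wider and 52 narrower by that factor. The ratio went with the starting width. It was 1.08 (1.01 to 1.15) in the narrowest of 4 equal groups of OPC peaks, 0.988 (0.947 to 1.00) and 0.930 (0.837 to 0.988) in the middle ones, and 0.849 (0.805 to 0.904) in the widest. OPC width is itself a term of the ratio, so this order is given as a description.

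**Figure D2:**
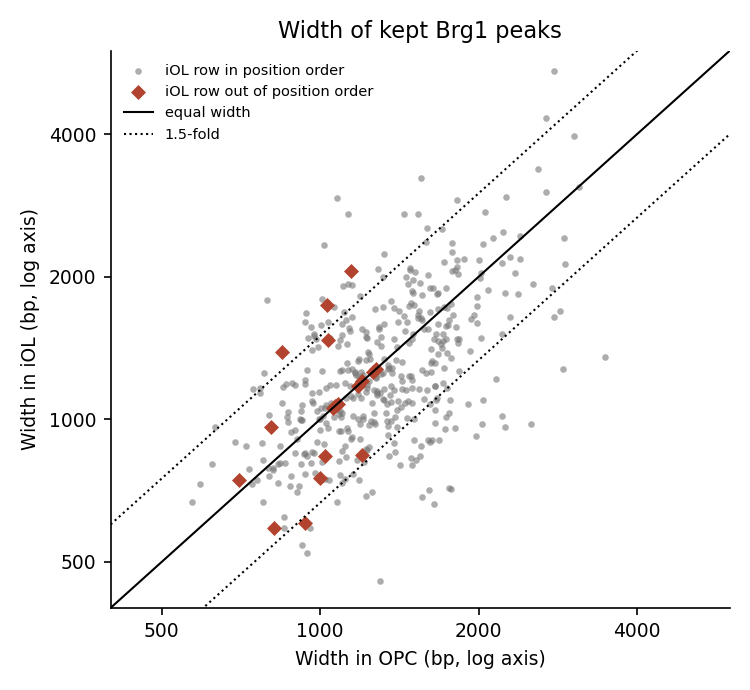
Width in OPC (x axis, bp, log axis) against width in iOL (y axis, bp, log axis) for the 450 OPC Brg1 peaks met in iOL; diamonds are the 18 iOL rows out of position order. Points lie on both sides of the line of equal width, with 38 beyond the upper and 53 beyond the lower 1.5-fold line.

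Position was compared by peak midpoints. The midpoint moved by a median of 111 bp (quartiles 52.6 and 226), by 100 bp or less at 208 sites and by more than 500 bp at 19. At 431 of the 450 sites the iOL peak covered at least 50% of the OPC peak. Widening was largest at chr1:76816538-76817614, from 1077 to 2939 bp (2.73 times), followed by chr18:40848286-40849414, from 1129 to 2712 bp (2.40 times), and chr2:82744827-82745841, from 1015 to 2332 bp (2.30 times). All 3 met Olig2 and H3K27Ac in OPC and iOL, and Brg1 and H3K27Ac in mOL. The value on chromosome 18 sets 1 OPC peak against the single iOL peak that joined 2 OPC peaks. The other OPC peak joined there, of 1446 bp, also counted as widened (1.88 times). Narrowing was largest at chr1:167876695-167877993, from 1299 to 455 bp (0.350 times), a site with Olig2 in OPC and iOL and no acetylation or Brg1 in mOL. The next were the split peak on chromosome 8, from 3473 to 1351 bp (0.389 times), and chr3:170944713-170947224, from 2512 to 979 bp (0.390 times).

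Sites that widened were acetylated more often than sites that narrowed. H3K27Ac in iOL was found at 31 of the 38 sites widened at least 1.5 times (81.6%, 65.7 to 92.3) and at 24 of the 53 narrowed ones (45.3%, 31.6 to 59.6). Among the 359 sites with smaller changes it was 62.1% (56.9 to 67.2). Brg1 in mOL was found at 81.6% (65.7 to 92.3), 50.9% (36.8 to 64.9) and 67.4% (62.3 to 72.2) of the same groups. Olig2 in OPC did not separate them, at 97.4%, 94.3% and 96.1%. The groups were cut by a ratio that holds the iOL width, acetylation was more frequent at wide iOL peaks, and the part of width in this difference was not tested. The widest OPC peaks showed no common change. Beside the split peak, chr4:49193805-49196904 went from 3100 to 3094 bp, chr5:123341439-123344473 from 3035 to 3963 bp, chr5:9228120-9231037 from 2918 to 2126 bp and chr20:42699153-42702057 from 2905 to 2420 bp. All 5 met Olig2 and H3K27Ac in OPC and iOL.

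Brg1 sites were sparse in OPC and moved closer together in iOL as the list grew 12.1 times. The gap between neighbouring peaks had a median of 2.96 Mb in OPC (quartiles 0.707 and 7.91 Mb) and of 204 kb in iOL (52.8 and 599 kb). Gaps over 1 Mb made up 69.8% of the OPC gaps and 13.7% of the iOL gaps. Gaps of 10 kb or less numbered 3 of 430 in OPC and 420 of 5443 in iOL. The mOL Brg1 list, of a length like that of iOL, had a median gap of 248 kb. The iOL Olig2 list of 25787 peaks had one of 41.3 kb.

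Peaks with gaps of up to 10 kb were joined into runs. In iOL, 780 of 5465 peaks (14.3%, 13.4 to 15.2) fell into 360 runs, of which 312 held 2 peaks, 42 held 3 and 6 held 4 or more. In OPC 6 peaks made 3 pairs (1.33%, 0.489 to 2.87). A longer list by itself places more peaks within 10 kb of each other, and this part was not tested. The 456 kept iOL peaks taken alone, a list about as long as that of OPC, had 3.51% (2.02 to 5.64) in runs. These runs were 8 pairs, all with gaps of 1 kb or less. Each of the 7 OPC peaks that met 2 iOL peaks puts such a pair into the kept list by definition. The value therefore cannot be set against that of OPC as a measure of clustering. The mOL Brg1 list had 14.8% (13.8 to 15.9) of peaks in 306 runs. The iOL runs had a median span of 7030 bp and reached 21793 bp, and gaps inside them had a median of 3.80 kb. Of the 420 gaps inside runs, 105 were 1 kb or less.

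Of all iOL peaks 8.34% were kept, and most runs held no kept peak. A kept peak was present in 77 of the 360 runs (21.4%), in 61 of 312 pairs (19.6%) and in 16 of 48 runs of 3 or more (33.3%). These shares count runs of unequal size and cannot be compared with each other or with single peaks. Counted by peak, 67 of the 624 peaks in pairs and 19 of the 156 in larger runs were kept. Of the 4685 single peaks, 370 were kept (7.90%). By class, 86 of 456 kept peaks (18.9%, 15.4 to 22.8) and 694 of 5009 iOL-only peaks (13.9%, 12.9 to 14.8) lay in runs. Among the widest 25% of iOL peaks, the values were 22.1% (16.4 to 28.7) and 18.1% (16.0 to 20.4), with overlapping intervals. In mOL, Brg1 was called in at least 1 peak of 62 of the 77 runs with a kept peak (80.5%) and 183 of the 283 runs without one (64.7%). Every peak had a Brg1 call in mOL in 25 and 51 of these runs. These counts also depend on run size. A run with a kept peak holds by definition a peak of the class more often called in mOL, at 66.9% against 37.3% of iOL-only peaks. The part of either was not tested.

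Peaks of a run often differed in acetylation. H3K27Ac of iOL met every peak in 158 runs, some peaks in 131 and none in 71. All peaks met iOL Olig2 in 189 of the 360 runs (52.5%). Among iOL-only peaks, H3K27Ac in iOL was found at 61.4% (57.2 to 65.5) of those in pairs, 58.4% (49.7 to 66.7) of those in larger runs and 46.0% (44.5 to 47.5) of single ones. Olig2 of iOL did not follow this order, at 71.1% (67.1 to 74.8), 67.2% (58.6 to 74.9) and 72.9% (71.5 to 74.2).

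The run with most peaks carried the promoter mark and had no Olig2 in iOL. It held 8 peaks of 663 to 1357 bp over 16768 bp at chr1:44923288-44940055. Of these, 6 met H3K4me3 and H3K27Ac in iOL, all 8 met H3K27Ac in mOL, and none met Olig2 in iOL. Its kept peak, chr1:44924338-44925312, was the next after the leftmost, and 1 of the 8 was called in mOL. Over all sites H3K4me3 of iOL was rare at Brg1, at 4.67% (4.10 to 5.29) of iOL-only and 1.97% (0.906 to 3.71) of kept peaks.

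Among the other large runs, 5 held no H3K4me3 in iOL. At chr2:213978848-214000226, 5 iOL-only peaks spanned 21379 bp. All 5 met Olig2 in OPC and Brg1 and H3K27Ac in mOL, 4 met H3K27Ac in OPC and iOL. At chr18:36011394-36027651, 5 iOL-only peaks spanned 16258 bp. Of them 4 met Olig2 in iOL, 1 met H3K27Ac in iOL and 3 met it in mOL. The run chr1:219662834-219677686 held 4 iOL-only peaks of 877 bp at most, and 1 of them was called in mOL. The run chr1:175599619-175612560 held 4 peaks, of which the outer 2 were kept, and all 4 were acetylated in OPC and iOL. In chr1:173681454-173701436 the middle of 3 peaks was kept, and it and the peak of 2369 bp beside it were called in mOL. The exception was chr18:50402956-50413565, where a kept peak of 1002 bp lay at the right end of 4 and an iOL-only peak of 3337 bp at the left end, and all 4 met Olig2, H3K27Ac and H3K4me3 in iOL.

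The iOL-only sites were for the most part far from any OPC site. Their distance to the nearest OPC Brg1 peak had a median of 1.77 Mb (quartiles 526 kb and 4.30 Mb). A distance of up to 10 kb was found for 86 of the 5009 (1.72%, 1.38 to 2.12), of up to 100 kb for 9.56% (8.76 to 10.4) and of up to 1 Mb for 37.2% (35.9 to 38.6). Seen from OPC, 71 of the 452 sites had an iOL-only peak within 10 kb (15.7%), 251 within 100 kb (55.5%) and 438 within 1 Mb (96.9%). The 3 nearest were 36, 151 and 170 bp from an OPC peak, at chr5:20428185-20428960, chr14:27771104-27772747 and chr3:125541341-125542044. All 3 met Olig2 in OPC and none in iOL. The 3 farthest, chrX:3552470-3553597, chrX:3766501-3767054 and chrX:7048519-7049344, lay 64.2 to 67.7 Mb away on a chromosome with 3 OPC peaks, and all 3 met Olig2 in OPC.

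Peaks of other lists were less often near the OPC Brg1 sites. The share within 10 kb was 0.687% (0.581 to 0.806) for the 21687 iOL Olig2 peaks without Brg1 and 0.798% (0.675 to 0.937) for the 18539 iOL H3K27Ac peaks without Brg1. Within 100 kb it was 5.41% (5.12 to 5.72) and 5.10% (4.79 to 5.42), against 9.56% of iOL-only Brg1 peaks. For the 2180 Brg1 peaks called in mOL alone it was 0.917% (0.561 to 1.41) within 10 kb and 6.42% (5.43 to 7.53) within 100 kb, the first with an interval just overlapping that of the iOL-only peaks. At 1 Mb the mOL-only peaks, at 35.3% (33.3 to 37.3), had an interval overlapping that of the iOL-only peaks. These are shares of peaks in single libraries, without a test between lists.

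**Figure D3:**
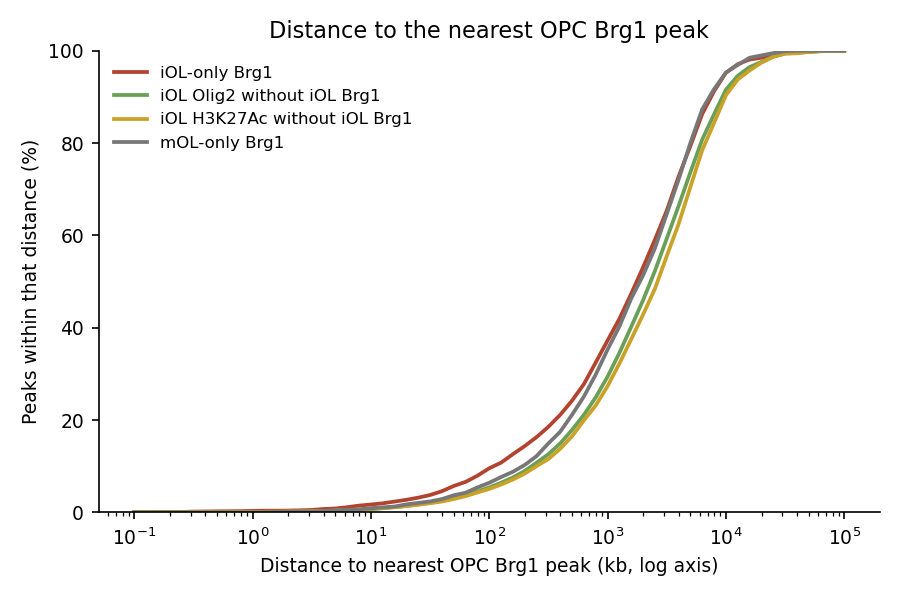
Cumulative share of peaks (y axis, %) within a distance of the nearest OPC Brg1 peak (x axis, kb, log axis) for 4 lists of peaks. The iOL-only Brg1 curve lies highest at 100 kb, at 9.56% against 5.10% to 6.42% in the other lists.

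The iOL-only peaks within 10 kb of an OPC site had Olig2 in iOL less often, and acetylation in OPC more often, than those beyond 100 kb. Olig2 of iOL was found at 57.0% (45.8 to 67.6) of the 86 peaks within 10 kb and at 71.0% to 73.2% in the 3 bands beyond. H3K27Ac of OPC was found at 57.0% (45.8 to 67.6) within 10 kb, 48.6% (43.6 to 53.7) at 10 to 100 kb, 39.8% (37.2 to 42.5) at 100 kb to 1 Mb and 42.4% (40.6 to 44.1) beyond. Brg1 in mOL ranged from 36.6% to 39.9%. The median width was 1080 bp within 10 kb and 954 bp beyond 1 Mb, and the part of width was not tested.

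The growth of the list was spread over the chromosomes. The ratio of iOL to OPC peak numbers lay between 9.38 on chromosome 18 and 14.8 on chromosome 13 among the 17 autosomes with 10 or more OPC peaks. The share of iOL peaks that was kept ranged over the 20 autosomes from 5.38% on chromosome 19, with 5 OPC peaks, to 10.7% (7.08 to 15.2) on chromosome 18. Chromosome 18 was the densest at both stages, with 3.00 OPC and 28.2 iOL peaks per 10 Mb, against medians of 1.72 and 20.4 over autosomes. It also had 24.2% of its iOL peaks in runs, where the autosomal median was 13.6%, and chromosome 20 had 24.1%. Chromosome 12 had 13.7 iOL peaks per 10 Mb and none in a run. Chromosome X was the sparsest, with 3 OPC and 63 iOL peaks, or 3.92 iOL peaks per 10 Mb. Per 100 iOL Olig2 peaks it had 14.9 Brg1 peaks, within the autosomal range of 12.1 to 28.2. The lengths used were the largest peak ends over all lists.

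**Figure D4:**
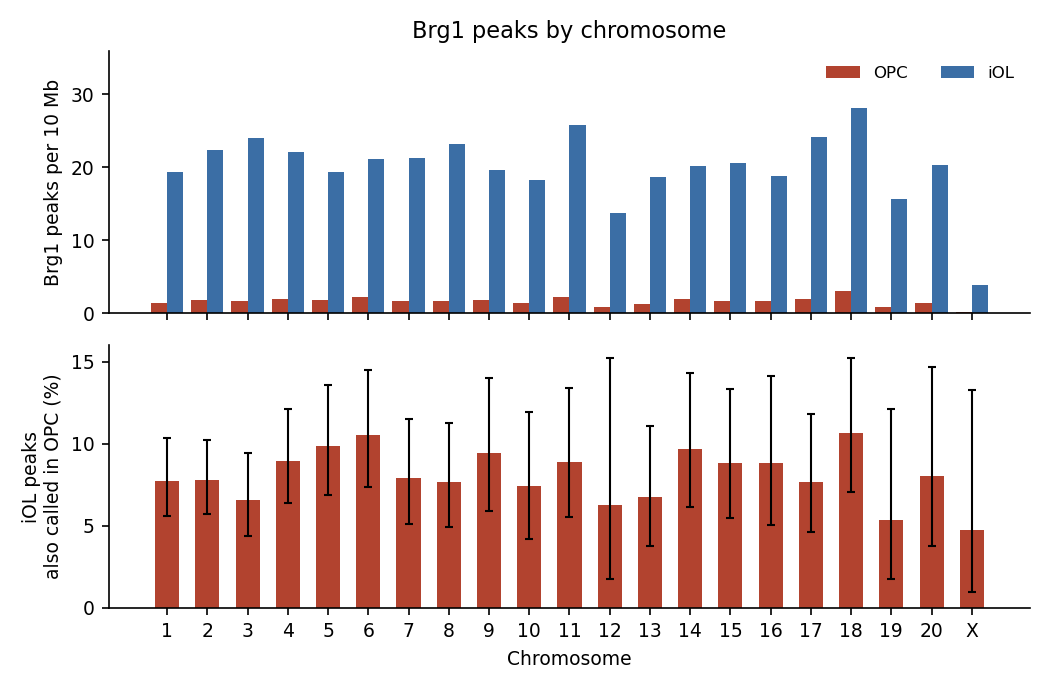
Brg1 peaks per 10 Mb in OPC and iOL (upper panel) and the share of iOL peaks also called in OPC with exact 95% intervals (lower panel, %), by chromosome. Density is highest on chromosome 18 at both stages, and the intervals of the kept share overlap widely.

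Kept sites were marked in OPC more often than iOL-only sites. They met Olig2 in OPC at 95.6% (93.3 to 97.3; 96.1% without the 18 rows) and H3K27Ac in OPC at 68.6% (64.2 to 72.9), against 73.7% and 42.4% of iOL-only sites. Both together were found in OPC at 306 of 456 kept sites (67.1%, 62.6 to 71.4) and 1771 of 5009 iOL-only sites (35.4%, 34.0 to 36.7). Olig2 without acetylation was found at 28.5% (24.4 to 32.9) and 38.3% (37.0 to 39.7). Neither was found at 13 kept sites (2.85%, 1.53 to 4.83) and 965 iOL-only sites (19.3%, 18.2 to 20.4). Seen from the 5026 acetylated Olig2 peaks of OPC, 6.37% (5.71 to 7.08) held Brg1 in OPC and a further 36.2% (34.8 to 37.5) held an iOL-only Brg1 peak. For the 16875 Olig2 peaks of OPC without acetylation the values were 0.806% (0.677 to 0.953) and 11.4% (10.9 to 11.9).

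Acetylation calls were lost and gained in both classes, which started from unlike shares in OPC. Among kept sites, H3K27Ac was called at both stages at 250, in OPC only at 63, in iOL only at 33 and at neither at 110. Among iOL-only sites the numbers were 1725, 399, 680 and 2205. The share acetylated thus went from 68.6% to 62.1% (57.4 to 66.5) at kept sites and from 42.4% to 48.0% at iOL-only sites. Without the 18 rows the kept shares were 70.5% (66.0 to 74.8) and 63.9% (59.2 to 68.4). The direction of each net change depends on the starting share, so the opposite directions do not show unlike rates of loss or gain. Of sites acetylated in OPC, 63 of 313 kept and 399 of 2124 iOL-only sites had no call in iOL. Of sites without a call in OPC, 33 kept sites gained one and 110 did not, against 680 and 2205 iOL-only sites. Of all OPC H3K27Ac peaks, 76.3% met an iOL H3K27Ac peak, and of all iOL ones 66.0% met an OPC peak. Olig2 was called in OPC only at 44 and in iOL only at 2 kept sites, against 428 and 369 iOL-only sites. With Olig2 in OPC at 436 of the 456 kept sites, few could gain a call. The sites with Olig2 in OPC from which the call was lost were 44 of 436 kept and 428 of 3691 iOL-only. Of all OPC Olig2 peaks, 71.6% met an iOL Olig2 peak. Of all iOL Olig2 peaks, 61.4% met an OPC Olig2 peak. The OPC Olig2 peaks are wider than those of iOL, with medians of 1312 and 720 bp, and the part of this in the counts was not tested.

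Acetylation in iOL did not clearly separate kept from iOL-only sites within groups by width. The iOL list was divided into 4 equal groups by width, with limits at 780, 986 and 1275 bp. From the narrowest to the widest group, H3K27Ac in iOL was found at 22.0%, 47.4%, 54.4% and 82.6% of kept peaks and at 21.0%, 38.9%, 55.9% and 80.4% of iOL-only peaks. In each group the intervals overlapped. Brg1 in mOL was by contrast called more often at kept peaks of the same width group. It was found at 34.1% (20.1 to 50.6), 56.4% (44.7 to 67.6), 66.0% (57.7 to 73.6) and 78.9% (72.5 to 84.5) of kept peaks. At iOL-only peaks it was found at 22.2% (20.0 to 24.5), 32.8% (30.3 to 35.5), 42.1% (39.3 to 44.9) and 54.3% (51.4 to 57.1), and the intervals overlapped in the narrowest group only. H3K27Ac in OPC was also more frequent at kept peaks of the same width group. It was at 36.6% (22.1 to 53.1) against 15.6% (13.7 to 17.7) in the narrowest group. In the next to widest it was at 62.6% (54.2 to 70.4) against 51.1% (48.3 to 53.9). In the widest it was at 91.1% (86.1 to 94.7) against 76.4% (73.8 to 78.8). In the remaining group, at 42.3% against 30.7%, the intervals overlapped. Peaks of a group were not of equal width, and the widest group ran from 1275 to 5447 bp. Inside it the kept share was 12.6% at 1363 to 1630 bp and 18.6% at 1631 to 5447 bp. The part of width inside the groups was not tested.

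**Figure D5:**
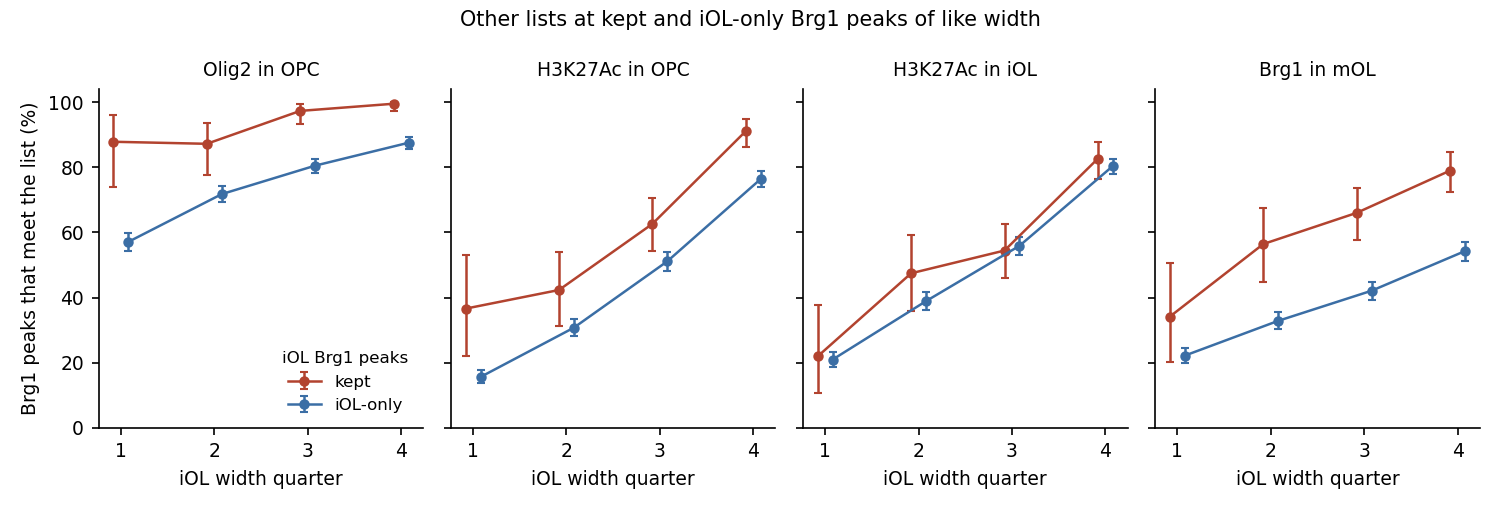
Share of Brg1 peaks of iOL (y axis, %) that met Olig2 in OPC, H3K27Ac in OPC, H3K27Ac in iOL and Brg1 in mOL, for kept and iOL-only peaks in 4 equal groups by iOL width (x axis, 1 narrowest), with exact 95% intervals. The intervals overlap in each group for H3K27Ac in iOL, from 21.0% and 22.0% to 80.4% and 82.6%, and in the narrowest group only for Brg1 in mOL.

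Whether a site was called again in mOL went with its state in OPC. Over all widths, Brg1 in mOL was found at 305 of 456 kept sites (66.9%, 62.4 to 71.2) and 1868 of 5009 iOL-only sites (37.3%). Among kept sites it was 73.5% (68.2 to 78.4) with Olig2 and H3K27Ac in OPC and 54.6% (45.7 to 63.4) with Olig2 alone. Among iOL-only sites it was 49.9% (47.5 to 52.2) with both, 35.2% (33.1 to 37.4) with Olig2 alone, 28.0% (23.4 to 33.0) with acetylation alone and 21.8% (19.2 to 24.5) with neither. The median widths of these 4 groups of iOL-only sites were 1226, 897, 1068 and 768 bp, and the part of width was not tested. Without the 18 rows, 68.5% of kept sites were called in mOL.

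H3K4me3, H3K9me3 and RNA polymerase II were rare at both classes. The RNA polymerase II lists held 332 peaks in OPC and 1425 in iOL, and the H3K9me3 list of iOL held 827. These lengths limit how many Brg1 peaks could meet them. H3K4me3 was called in both OPC and iOL at 9 kept and 214 iOL-only sites. H3K9me3 of iOL was met by no kept peak (up to 0.658% for 3 counts) and by 2 iOL-only peaks. RNA polymerase II of OPC was met by no kept and 4 iOL-only peaks, and that of iOL by 12 kept (2.63%, 1.37 to 4.55) and 57 iOL-only peaks (1.14%, 0.863 to 1.47). The 5 widest iOL-only peaks met acetylation at all 3 stages. They were chr8:10162055-10167006 (4952 bp), chr6:39492211-39496281 (4071 bp), chr5:101397193-101401232 (4040 bp), chr3:153020282-153024232 (3951 bp) and chr1:135265305-135269099 (3795 bp). The first 2 carried H3K4me3 at all 3 stages and had no Brg1 in mOL, and the last 2 had Brg1 in mOL.

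Some iOL-only sites met nothing else that was mapped. Of the 5009, 506 met no peak of Olig2, RNA polymerase II or a mark at any stage (10.1%, 9.28 to 11.0), against 5 of 456 kept sites (1.10%, 0.357 to 2.54). They were narrow: 24.7% (22.4 to 27.1) of the iOL-only peaks in the narrowest of the 4 width groups were of this kind and 0.935% (0.468 to 1.67) in the widest. Brg1 in mOL was called at 46 of the 506 (9.09%, 6.73 to 11.9).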

How the data were processed

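Positions were the values analysed. Per the submitters' processing notes MACS 1.4.0 and genome build rn4 were used; the aligner, settings, threshold, control library and pooling: not given in the sources used here. Deposited files held peak positions alone (3 columns), without heights or p-values. Samples were grouped by title. Starts were made 1-based by adding 1, and all peaks were used. Overlap meant at least 1 bp, gaps and distances were edge to edge, and runs joined gaps of up to 10 kb. Regions named were the OPC peaks without an iOL peak, the 5 widest OPC and iOL-only peaks, the 5 runs with most peaks, the 3 with most iOL-only peaks around a kept one, the 3 largest and smallest width ratios and the 3 farthest iOL-only peaks, on placed chromosomes. OPC peaks split over 3 or more were planned and did not occur. Split pairs, nearest peaks and the rows out of position order were chosen after their values were seen. The members and comparisons were chosen with earlier results of these data known. Calculations used Python 3.11.15, numpy 2.4.6, pandas 2.3.3, scipy 1.17.1 and matplotlib 3.10.9, were tested on simulated data, and gave the same counts as bedtools 2.31.1 on 6 pairs of lists. Alternatives were other overlap rules, gaps and distances, the wider 50% of each Brg1 list, the middle 200 bp of each peak, lists without unplaced sequence and other stages of the marks.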

Additional observations from a re-analysis of the deposited data

How the results depend on the processing

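No paired analysis was possible because each target and stage had 1 library. Of 72 recomputed values, 42 stayed in the range of the value reported and 30 moved beyond its counting interval. For OPC peaks met in iOL, the share was 87.2% for the wider 50% of both Brg1 lists, 70.6% with the middle 200 bp of each peak and 19.7% with only the widest 452 iOL peaks. It was 95.6% without the rows out of position order and 98.0% without the identical ones, both alternatives being chosen after seeing the data. For iOL peaks kept it was 7.36% (wider 50%) and 5.84% (middle 200 bp). The median width ratio was 0.923 with the wider 50%. The share in runs was 11.1% (wider 50%), 8.87% (gap of 5 kb), 23.1% (20 kb) and 13.2% (midpoints), and iOL-only peaks within 50 kb of an OPC peak made up 5.71%. With the wider 50%, H3K27Ac was at 78.6% of kept and 67.4% of iOL-only peaks, Olig2 at 95.5% and 84.6%, and Brg1 in mOL at 56.2% and 35.8%. With the middle 200 bp, H3K27Ac was at 53.9% and 46.0%, Brg1 in mOL at 56.4% and 28.8%, and Olig2 at 71.2% of iOL-only peaks. With a mark of any stage, H3K27Ac was at 82.0% and 66.2%, and Olig2 at 96.1% and 81.1%. An overlap of 50% gave H3K27Ac at 46.6% of iOL-only peaks, and a tolerance of 1000 bp gave Olig2 at 74.2%. Kept peaks were above iOL-only peaks under each of the 8, 8 and 7 settings run for H3K27Ac, Olig2 and Brg1 in mOL. These settings did not compare peaks of equal width, and kept peaks were wider, with medians of 1192 against 967 bp. Within groups by iOL width, the intervals for H3K27Ac in iOL overlapped in every group. At 986 to 1275 bp it was at 54.4% of kept and 55.9% of iOL-only peaks. In the other width groups the kept share was the higher. For Brg1 in mOL the intervals overlapped in the narrowest group only. Depth is unknown, and its part in the length of the OPC list was not tested.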
